A study of Mus musculus with 6 samples.

Results

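Interferon stimulated genes are the antiviral and immune genes that cells switch on after interferon binds its receptors, and they are described here in mouse skin with and without Sox4. A list of 34 such genes was taken by symbol, and the probes of an expression array were assigned to them through the RefSeq transcript accession that each probe carries. Of the 34 genes, 31 passed a filter on dim probes and entered the comparison, among 22822 genes and unnamed transcripts tested in all. Mx1 and Mx2, listed as transcribed pseudogenes in the RefSeq annotation used, had no probe matched by accession. Oas3 had a probe that was well above background on 2 of 3 knockout arrays and 1 of 3 wild-type arrays and was not tested.

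The series compared whole skin from 3 male mice whose Sox4 was conditionally deleted there (KO) with skin from 3 wild-type male mice (WT). By the labels all mice were untreated, on a mixed C57Bl6/129Sv background, and sampled in telogen, when hair follicles rest. The KO mice were 17, 18 and 16 weeks old and the WT mice 20, 19 and 18 weeks old in replicates 1, 2 and 3, so the groups differ in age as well as genotype. No source used here names the Cre line that deleted Sox4. RNA was hybridised to 1-colour Agilent arrays, so each value averages over the keratinocytes, fibroblasts, fat, muscle and immune cells of the piece.

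Type I and type III interferons signal through the kinases Jak1 and Tyk2 to a complex that contains Stat2 and Irf9 and binds a DNA motif called the interferon-stimulated response element. Interferon gamma uses a receptor of its own and induces Irf1. Many of the genes have a low resting level in unchallenged tissue and rise steeply during infection. In skin they are known from keratinocytes and from the resident immune cells.

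The response element was looked for in the RefSeq promoter windows, because it is the sequence through which these genes are known to be induced together. The windows hold 250 bases before and 50 after each annotated start (build GRCm38.p6). The motif searched, on both strands, was GAAA, then any 2 bases, then GAAA again, and matches that overlap each other were counted. At least 1 match was present for 14 of the 25 listed genes that had a promoter window (56%), against 1079 of 27025 genes overall (3.99%). Stretches from 7 of the genes are given, read 5′ to 3′ on the strand of the gene and ending before the annotated start, with matches to the motif or its reverse complement in capitals. They come from chr19:34640765-34640833 (plus strand) for Ifit1, chr19:34583353-34583436 (plus) for Ifit3, chr4:156200855-156200916 (minus) for Isg15, chr5:120907526-120907565 (minus) for Oas1a, chr12:26456543-26456592 (minus) for Rsad2, chr8:71537567-71537622 (minus) for Bst2 and chr3:142620584-142620633 (plus) for Gbp2.
Ifit1: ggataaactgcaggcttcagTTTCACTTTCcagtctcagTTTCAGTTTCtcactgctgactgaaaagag
Ifit3: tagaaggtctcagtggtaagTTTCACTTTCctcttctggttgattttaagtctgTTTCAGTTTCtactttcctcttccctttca
Isg15: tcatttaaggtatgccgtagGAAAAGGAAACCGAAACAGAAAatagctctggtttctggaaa
Oas1a: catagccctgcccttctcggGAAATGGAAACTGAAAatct
Rsad2: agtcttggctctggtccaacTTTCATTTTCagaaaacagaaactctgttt
Bst2: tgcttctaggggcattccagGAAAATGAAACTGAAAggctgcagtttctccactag
Gbp2: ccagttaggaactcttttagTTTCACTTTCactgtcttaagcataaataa
Isg15 holds 3 matches that overlap head to tail, and Oas1a and Bst2 hold 2 each in the same arrangement, whereas Ifit1 and Ifit3 hold 2 separated matches. A match is a run of letters and was not tested as a binding site. No match lay in the windows of the 11 others: Cmpk2, Dtx3l, Ifi35, Ifi44, Ifit2, Irf1, Irf7, Irf9, Oasl1, Oasl2 and Xaf1.

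Between 52.1% and 66.4% of probes were well above background per array, and no spot was saturated. All 31 tested genes were well above background on all 6 arrays. Values are log2 of the processed signal relative to the array's 75th percentile, so a value of 0 means a signal equal to that percentile. Levels of different genes are not compared, since probes differ in brightness for equal amounts of RNA. Sox4 read −2.94, −2.88 and −3.05 in KO and 0.41, 0.65 and 0.75 in WT, a log2 fold change of −3.56 (SE 0.13, limma adjusted p = 0.00135, n = 3 per group), in the direction of the genotype labels. The 11 tested genes of 12 that define keratinocytes and dermis were well above background on every array, and Lor, the cornified-layer protein loricrin, read 9.41, 9.36 and 9.25 in KO and 9.50, 9.55 and 9.49 in WT. KO replicates 1 and 2 stood apart and went against the telogen label. Hair shaft and root sheath markers (8 tested), known from growing follicles, had median deviations from their mean of 4.33, 3.65 and −1.92 in KO and −2.11, −1.27 and −2.32 in WT. Krt71, a keratin of the inner root sheath chosen after its values were seen, read 7.22, 6.73 and −2.27 in KO and −2.39, −1.19 and −1.59 in WT.

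As a group, interferon stimulated genes did not shift in a common direction between KO and WT skin. The median log2 fold change, KO minus WT, was 0.00 over the 31 genes, with 16 higher and 15 lower in KO and a range of −0.47 to 0.45. Over all genes tested the median was −0.09, with 35.9% higher in KO. With limma and Benjamini-Hochberg adjustment over all genes, 0 of the 31 passed an adjusted p of 0.05, beside 5 of all 22822 (0.0219%); the smallest adjusted p among the 31 was 0.377. Unadjusted p was under 0.05 for 1 of the 31, against 11.8% of all genes, and for 2 of the 31 every KO mouse lay above every WT mouse with none the other way, against 19.3% of all genes in either direction and 7.56% higher in KO. Each count is at or below its background share. With age as a covariate the median of the 31 was −0.24 (all genes −0.15) and 3 of the 31 were higher in KO. Without WT replicate 2 the median was −0.15 (all genes −0.07) with 6 higher. Without KO replicate 2 it was 0.09 (all genes −0.06) with 20 higher. With KO replicates 1 and 2 both left out, so that the 1 KO mouse left is assumed to vary like the WT mice, it was 0.16 (all genes −0.02) with 23 higher and 0 called by limma, 1 having an unadjusted p under 0.05. In whole skin, fewer cells of a type and less RNA per cell cannot be told apart.

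**Figure D1:**
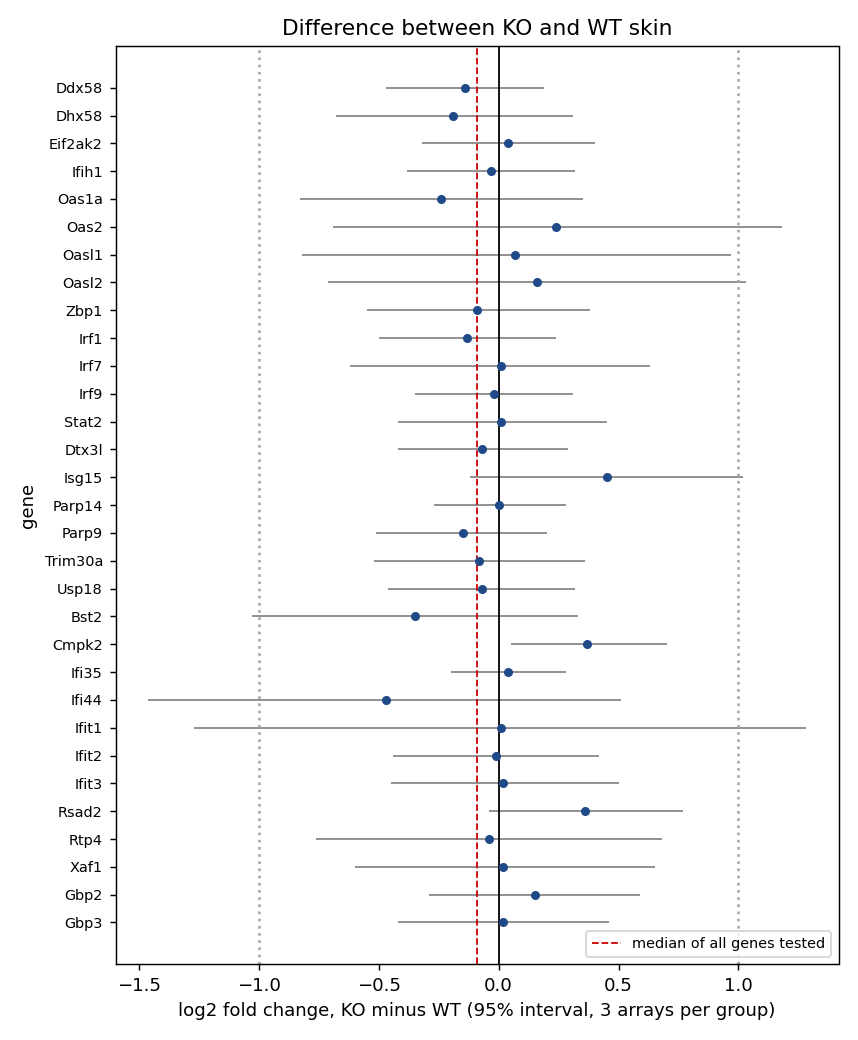
Log2 fold change (KO minus WT, horizontal axis) of the 31 tested interferon stimulated genes with the 95% interval from limma, 3 arrays per group. The solid line marks no change, the dashed line the median of all genes tested (−0.09) and the dotted lines a 2-fold change either way; the interval of Cmpk2 (0.05 to 0.70) is the one that leaves out no change.

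The precision differed between genes. The 95% interval of the difference lay within a 2-fold change either way for 25 of the 31 genes, a share of 80.6% beside 80.7% over all genes. It was narrowest for Ifi35 (−0.20 to 0.28) and Parp14 (−0.27 to 0.28), so a 2-fold difference in either was outside the interval. It was widest for Ifit1 (−1.27 to 1.28), Ifi44 (−1.46 to 0.51) and Oas2 (−0.69 to 1.18), for which these arrays cannot exclude a 2-fold difference. The absolute difference between genotypes was smaller than the pooled standard deviation within a genotype for 27 of the 31 genes (87.1%, against 55% of all genes).

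Sensors of foreign nucleic acid did not differ detectably. Of the 9 tested, 4 were higher and 5 lower in KO, with a median of −0.03 and adjusted p of at least 0.655. Ddx58, the helicase RIG-I, which recognises the ends of viral RNA, averaged 1.22 ± 0.16 in KO and 1.37 ± 0.14 in WT (SD, n = 3 each; log2 fold change −0.14, 95% interval −0.47 to 0.19). Ifih1, the helicase MDA5, which recognises long RNA duplexes, read 1.16, 0.99 and 1.45 in KO and 1.23, 1.26 and 1.19 in WT, with the WT mice inside the KO range. Dhx58, the helicase LGP2 that tunes both, had −0.19 (95% interval −0.68 to 0.31). The group of oligoadenylate synthases and their relatives, which activate or modify RNA decay in infected cells, was more variable between mice. Oas2 read 1.16, 0.65 and 0.97 in KO and 0.83, −0.16 and 1.39 in WT, and Oasl2 read 1.02, 0.39 and 1.05 in KO and 0.65, 0.00 and 1.34 in WT. In both genes the WT mice spanned the whole range of the KO mice. Oas1a read 3.23, 2.91 and 3.77 in KO and 3.39, 3.44 and 3.81 in WT, with overlap (log2 fold change −0.24). With age as a covariate the Oas1a value was −0.88 (adjusted p = 0.211, limma, in a range of 0.211 to 0.992 over the alternatives), without KO replicate 2 it was −0.04, without KO replicates 1 and 2 it was 0.23, and its other probe gave −0.01. Oasl1, which in mice restrains Irf7, had 0.07, while the RNA-activated kinase Eif2ak2 (PKR) had 0.04 and Zbp1, a sensor of Z-form nucleic acid, −0.09. Oas1a has near-identical relatives next to it, and whether its probe also binds them was not tested.

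None of the 4 transcription factors that carry the response passed the test (limma adjusted p of at least 0.715), and all overlapped between genotypes. Stat2 and Irf9, partners in the complex that binds the response element, had log2 fold changes of 0.01 (95% interval −0.42 to 0.45) and −0.02 (−0.35 to 0.31). Of these, Irf9 read 2.43, 2.61 and 2.71 in KO and 2.54, 2.50 and 2.79 in WT. Irf1, the main factor of the interferon gamma branch, read 3.18, 3.31 and 3.50 in KO and 3.54, 3.22 and 3.61 in WT, and the groups overlapped. Irf7, the factor that amplifies interferon production, read −0.94, −1.66 and −1.62 in KO and −1.70, −1.50 and −1.03 in WT; replicate 1 of KO and replicate 3 of WT were the high mice, and the means were −1.40 in KO and −1.41 in WT.

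Among ISG15 and the genes of ubiquitin and ADP-ribose modification, Isg15 had the highest fold change of all 31 genes and did not pass the test. Isg15, a ubiquitin-like protein that is coupled to other proteins during the response, read 2.50, 1.90 and 2.74 in KO and 1.82, 1.81 and 2.16 in WT. KO replicate 2 lay within the WT range, and the log2 fold change was 0.45 (SE 0.24, 95% interval −0.12 to 1.02, limma adjusted p = 0.495). Its other probe gave 0.40. With age as a covariate the Isg15 value was −0.14 and no longer the highest, without KO replicate 3 it was 0.27, without KO replicate 2 it was 0.69, and without KO replicates 1 and 2 it was 0.81. Usp18, the protease that removes ISG15 and dampens receptor signalling, had −0.07 (−0.46 to 0.32). The ubiquitin ligase Dtx3l and its partner Parp9, which are neighbours on chromosome 16 with no annotated gene between them, had −0.07 and −0.15, and the ADP-ribosyl transferase Parp14 had 0.00. Trim30a, a mouse ubiquitin ligase that restrains inflammatory signalling, had −0.08.

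Cmpk2 and Rsad2, among the antiviral effectors, were the 2 genes whose genotypes did not overlap by the tested probe. Cmpk2, a mitochondrial nucleotide kinase, read −1.10, −1.32 and −1.09 in KO and −1.58, −1.68 and −1.38 in WT. Its lowest KO mouse stood just above the highest WT mouse. The log2 fold change was 0.37 (SE 0.13, 95% interval 0.05 to 0.70, limma unadjusted p = 0.0292, adjusted p = 0.377), a 1.3-fold difference; it was 0.49 on slide 1, which held 1 array of each genotype, and 0.43 on slide 2, which held 1 KO and 2 WT arrays. With age as a covariate it was 0.16, and without KO replicates 1 and 2 it was 0.45. A second Cmpk2 probe read −1.72, −2.29 and −2.24 in KO and −2.63, −2.55 and −1.85 in WT; by that probe the genotypes overlapped (difference 0.26). Rsad2, which encodes viperin, an enzyme that makes a chain-terminating nucleotide, read −1.25, −1.61 and −1.73 in KO and −1.82, −1.77 and −2.08 in WT (log2 fold change 0.36, SE 0.17, limma adjusted p = 0.460). KO replicate 3 and WT replicate 2 were nearly equal, and the difference was 0.09 on slide 1 and 0.68 on slide 2. It was 0.55 with age as a covariate, 0.20 with normexp background correction, 0.22 without KO replicate 1 and 0.16 without KO replicates 1 and 2. Cmpk2 and Rsad2 lie side by side on chromosome 12 with no annotated gene between them.

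The other antiviral effectors overlapped between genotypes. Ifit1, which binds viral RNA with an unusual cap, read −1.72, −2.70 and −1.38 in KO and −1.0, −2.84 and −1.99 in WT. Each genotype thus held a mouse with low Ifit1, replicate 2, and the means were −1.93 in KO and −1.94 in WT. Its relatives Ifit2 and Ifit3 had −0.01 and 0.02; Ifit3 has a near-identical relative, Ifit3b, and whether the probes tell them apart was not tested. Ifi44 had the lowest fold change of the 31, −0.47 (SE 0.41, limma adjusted p = 0.626), and KO replicate 2 at −2.65 was apart from the other 2 KO mice at −1.42 and −1.45. The Ifi44 value was −1.35 with age as a covariate, −0.73 without WT replicate 2, −0.20 without WT replicate 3, −0.07 without KO replicate 2 and −0.08 without KO replicates 1 and 2. Bst2, tetherin, which holds budding virus at the cell surface, read 2.46, 1.32 and 1.91 in KO and 2.32, 2.09 and 2.33 in WT, again lowest in KO replicate 2 (log2 fold change −0.35). It was −0.65 with age as a covariate, −0.63 without KO replicate 1 and −0.06 without KO replicate 2. Ifi35, Rtp4 and the apoptosis-promoting Xaf1 had 0.04, −0.04 and 0.02. The guanylate binding GTPases Gbp2 and Gbp3, which act against microbes inside cells, had 0.15 and 0.02.

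**Figure D2:**
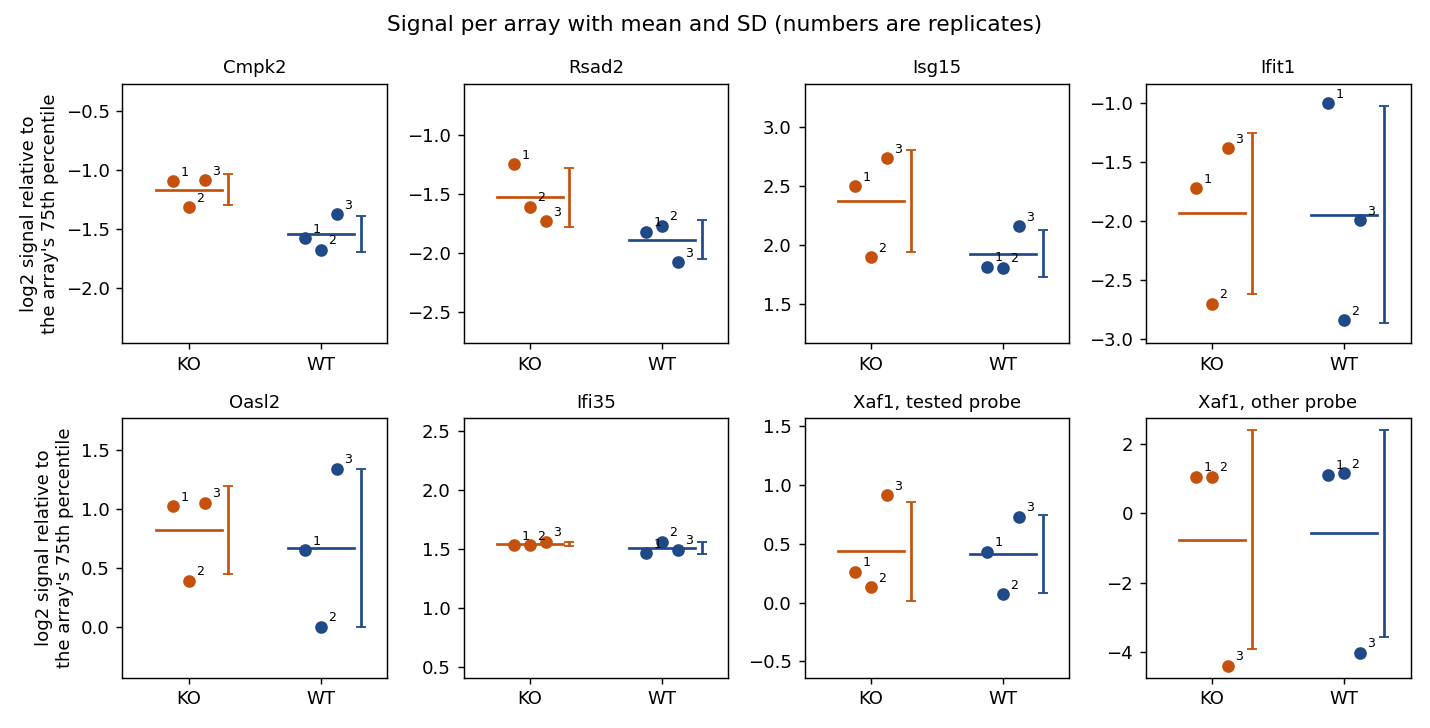
Log2 signal relative to the array's 75th percentile (vertical axes, a different range in each panel) for 7 genes in 3 KO and 3 WT mice, with the mean as a line and the SD as a bar; numbers are replicates and Xaf1 is shown for 2 probes. Cmpk2 and Rsad2 do not overlap between genotypes, Ifit1 and Oasl2 are lowest in replicate 2 of both genotypes, and the other Xaf1 probe is low in replicate 3 of both genotypes.

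Mice of the same genotype differed from each other by more than the genotypes did for most of the genes. The pooled within-genotype SD had a median of 0.24 log2 over the 31 genes, beside 0.20 over all genes, and 21 of the 31 were above the median of all genes. It was 0.81 for Ifit1, 0.62 for Ifi44, 0.59 for Oas2, 0.56 for Oasl1 and 0.54 for Oasl2; these 5 ranked between the 90.6 and 96.2 percentiles of all genes tested. At the other end stood Ifi35, an adaptor known from interferon-treated cells, with an SD of 0.04, and Parp14 with 0.09. The range over all 6 mice was 0.11 log2 for Ifi35 and 1.84 for Ifit1. The 13 tested genes with a motif match in their promoter window had a median SD of 0.24 (range 0.15 to 0.81), and the 11 without a match one of 0.23 (range 0.04 to 0.62). The median log2 fold change was 0.01 in each, and the difference between them was not tested.

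**Figure D3:**
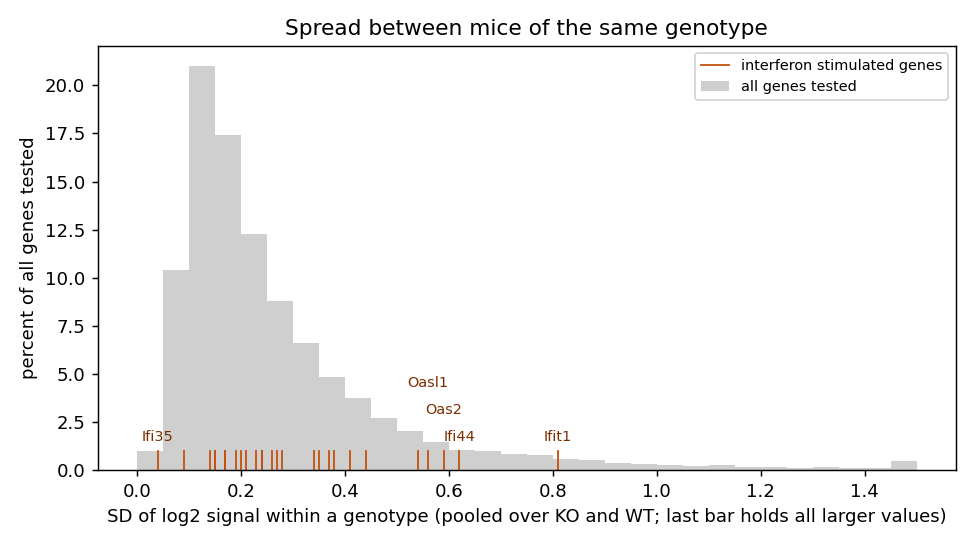
Distribution of the within-genotype SD of log2 signal (horizontal axis, pooled over 3 KO and 3 WT arrays) for all genes tested (bars, percent of genes), with a tick for each of the 31 interferon stimulated genes. Ifi35 lies at 0.04 and Ifit1 at 0.81, and the last bar collects all larger values.

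Many of the genes were highest in the same mice, and many were lowest in WT replicate 2. Of the 31 genes, 25 had their highest value in KO replicate 3 or WT replicate 3, against 31.5% of all genes. These were 10 and 15 genes, against 13.9% and 17.6% of all genes. The lowest value lay in KO replicate 2 or WT replicate 2 for 24, against 44% of all genes. WT replicate 2 was lowest for 15, against 16.9% of all genes. KO replicate 2 was lowest for 9 of the 31, near its share of 27.1% of all genes. These mice were picked out from the values. In 22 of the 31 genes both replicate 2 mice were below the gene's mean over the 6 mice, which held for 16.9% of all genes. Taking replicates 1, 2 and 3 in turn, the median deviation from the gene's mean was 0.00, −0.22 and 0.16 for KO and 0.02, −0.17 and 0.22 for WT, while over all genes it lay between −0.06 and 0.06. The 7 genes lowest elsewhere were Rsad2 (WT replicate 3) and, lowest in a replicate 1 mouse, Ifi35, Dtx3l, Irf1, Irf7, Irf9 and Usp18. KO replicate 2 was alone on slide 3 and WT replicate 2 shared slide 2 with KO replicate 1 and WT replicate 3; the part of slide in this order was not tested. Members of one response and arrays of one mouse are not independent, so these counts describe the 6 mice.

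**Figure D4:**
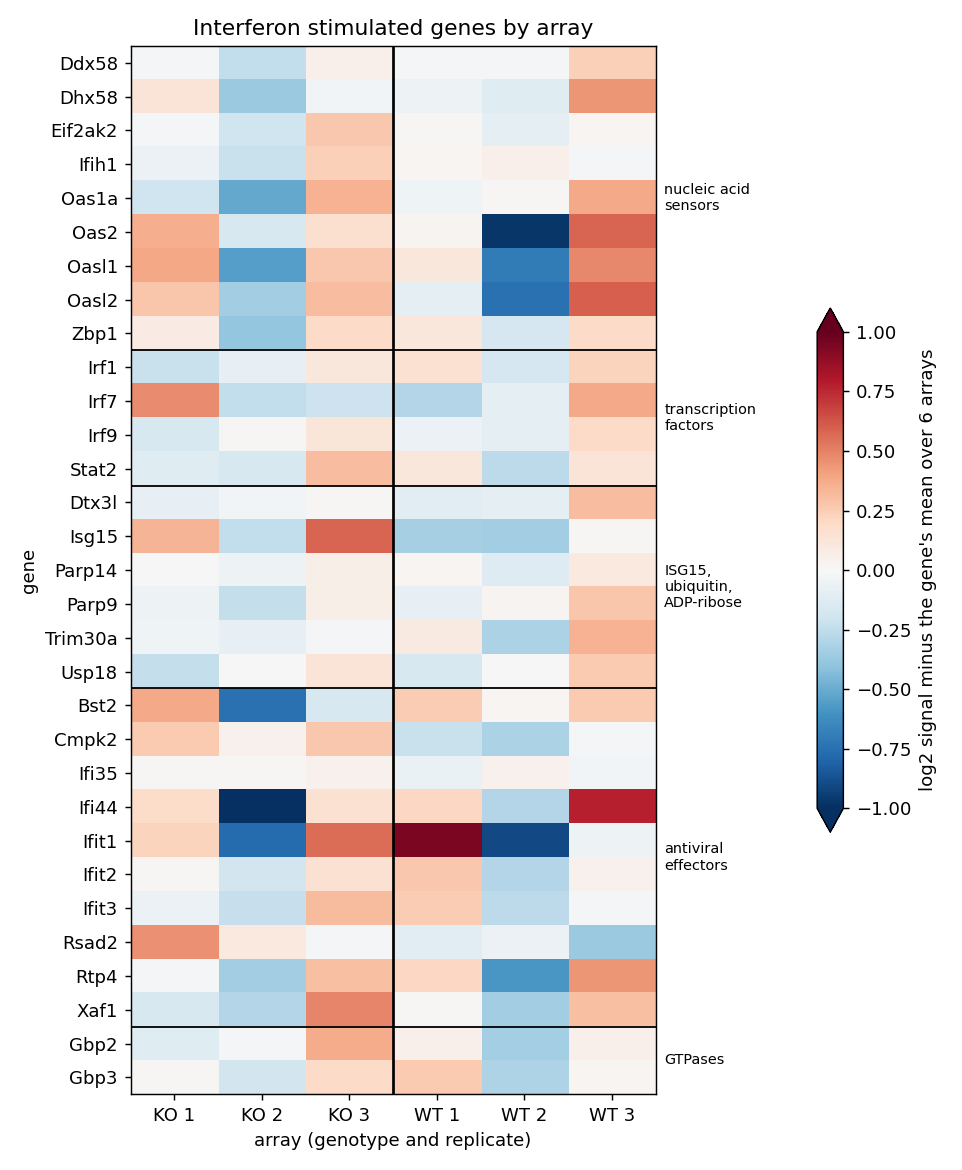
Log2 signal of each of the 31 genes (rows, grouped by role) minus its mean over the 6 arrays (columns, KO left and WT right); red is higher and blue lower, and the colour scale ends at 1 log2. KO replicate 2 and WT replicate 2 are blue in most rows and KO replicate 3 and WT replicate 3 red in most rows.

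For 8 of the genes more than 1 probe passed the filter, and for 5 of them the probes had fold changes of the same sign. Those of Ifih1, Zbp1 and Xaf1 differed in sign. The other Ifih1 probe read −3.59, −4.01 and −3.74 in KO and −4.56, −4.03 and −4.34 in WT (difference 0.53, against −0.03 for the tested probe) and was not well above background in 1 WT mouse. By that probe the genotypes did not overlap, with the lowest KO mouse barely above the highest WT mouse, and the mean over both probes gave 0.25. The tested Zbp1 probe read 0.44, −0.03 and 0.56 in KO and 0.48, 0.20 and 0.56 in WT (log2 fold change −0.09). Its other probe, of a different Zbp1 transcript, read −1.44, −1.74 and −1.76 in KO and −1.99, −2.49 and −1.59 in WT (difference 0.38), and both probes overlapped between genotypes. The other Xaf1 probe, singled out after its values were seen, read 1.06, 1.06 and −4.40 in KO and 1.12, 1.16 and −4.02 in WT. Replicate 3 of each genotype thus lay more than 3 log2 units below the other 4 mice, which were close together; the KO minus WT difference was −0.18. The probe was not well above background in KO replicate 3 and still was in WT replicate 3. The tested Xaf1 probe, of the same transcript accession, read 0.26, 0.13 and 0.91 in KO and 0.43, 0.07 and 0.73 in WT, highest in the same 2 mice.

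Upstream of the response, genes that encode interferons and their receptors did not pass the test. Of 19 interferon genes listed, 8 were tested, with 1 higher and 7 lower in KO and a median of −0.34 beside −0.09 over all genes. Of the 11 not tested, 7 had a probe that failed the filter, and Ifna6, Ifna9, Ifnz and Ifnl2 had no probe matched by accession. Of the 8, Ifna2 and Ifna7 passed the filter on dim probes through the WT arrays only and Ifna12 through the KO arrays only, so these counts are partly fixed by the filter. Ifnab, an interferon alpha gene, read −2.29, −2.66 and −2.04 in KO and −1.75, −2.08 and −1.76 in WT (log2 fold change −0.47, SE 0.19, limma adjusted p = 0.423). The keratinocyte interferon Ifnk had 0.34 (SE 0.24). The interferon alpha genes are close copies of each other, so these probes cannot be taken as independent. The probes of Ifnb1 and Ifne were not well above background on any of the 6 arrays, and that of Ifng, the T cell and natural killer cell product, was on 3. Of 11 receptors and signal carriers, 3 were higher and 8 lower in KO (median −0.07). Jak1, the kinase that all interferon receptors use, read 3.47, 3.63 and 3.39 in KO and 3.77, 3.80 and 3.85 in WT, without overlap (log2 fold change −0.31, SE 0.11, limma adjusted p = 0.382). The chains of the type I receptor, Ifnar1 and Ifnar2, named after their values were seen, had −0.05 and −0.09, and the gamma receptor chain Ifngr1 had −0.22.

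Genes of the steps that induce and restrain interferon did not pass either. Of 16 genes that induce it, 3 were higher and 13 lower in KO (median −0.08). Mavs, the mitochondrial adaptor of the RNA helicases, had 0.19, and Irf3, the factor that first switches on interferon beta, had −0.05. Both were without overlap between genotypes, although Irf3 was not among the 4 genes of smallest p in its list (limma unadjusted p = 0.65). Tlr7, an endosomal RNA receptor, had −0.27. Of 12 genes that restrain it, 2 were higher and 10 lower (median −0.09), the phosphatases Ptpn6 (−0.32) and Ptpn2 (−0.24) without overlap. Non-overlap held for 19.3% of all genes. In both lists 0 genes passed (limma adjusted p of at least 0.429), with unadjusted p under 0.05 for 0.

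A further 62 interferon stimulated genes outside the list were tested out of 73 named. Of these, 19 were higher and 43 lower in KO, a median of −0.07 beside −0.09 over all genes, and 0 passed (limma), with unadjusted p under 0.05 for 4 (beside 11.8% of all genes). The 4 were lower in KO: Ifi30, a thiol reductase of antigen processing (−0.40, SE 0.13, adjusted p = 0.347), the necroptosis effector Mlkl (−0.47), the immune cell factor Irf8 (−0.39) and the chemokine Cxcl10 (−0.61). Ifi30 read 2.85, 2.77 and 2.87 in KO and 3.02, 3.36 and 3.31 in WT. Cxcl10 read −0.44, −0.89 and −0.57 in KO and 0.27, −0.54 and 0.21 in WT, with WT replicate 2 the low WT mouse. In this wider list 53 of the 62 genes were below their mean in KO replicate 2 (60.6% of all genes) and 26 in KO replicate 3 (44.5%), against 36 in WT replicate 2 (40.3%) and 9 in WT replicate 3 (37.5%). KO replicate 3 thus lay near the share of all genes here, unlike in the 31 genes, of which 5 were below their mean in that mouse.

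Markers of some other cell types stood apart by genotype. All 12 tested T and natural killer cell markers were lower in KO (of 14 listed), with median deviations of −0.54, −0.56 and −0.46 in KO and 0.36, 0.42 and 0.68 in WT, and Cd3g fell by 1.32 on the log2 scale (limma adjusted p = 0.0464). Of the 12, Cd247 and Gzma passed the filter through the WT arrays only, which favours lower values in KO. The Cd3g call was lost under 9 of 17 alternatives, among them slide as a block (adjusted p = 0.322) and the replicate block (0.438), in a range of 0.0191 to 0.457, while its value stayed between −1.43 and −1.16; the other 7 were the fit without a filter, both fits without a pair of mice, and those without KO replicate 1, KO replicate 2, WT replicate 2 or WT replicate 3. The 10 skeletal muscle markers were all higher in KO, 0 of them passing the test (limma) and 7 with unadjusted p under 0.05, with deviations of 0.80, 1.32 and 0.65 in KO and 0.18, −1.32 and −1.78 in WT. Macrophage and dendritic cell markers (10 tested) lay at −0.20, −0.16 and −0.01 in KO and 0.12, −0.06 and 0.36 in WT. These medians cover genes that went in opposite directions, 3 higher and 7 lower in KO, with log2 fold changes of −0.67 to 0.86. The genotypes did not overlap for 2 that were higher and 4 that were lower, beside 19.3% of all genes in either direction, and 0 passed the test (limma). Of the plasmacytoid dendritic cell markers, 7 of 8 were tested, with 3 higher and 4 lower in KO and deviations of −0.12, −0.32 and −0.03 in KO and 0.12, 0.02 and 0.11 in WT, Bst2 being in both lists. B cell markers (3 tested, 2 of them through the WT arrays only) lay at −0.73, −0.56 and −0.26 in KO and 0.29, 0.09 and 0.88 in WT, and endothelial markers (6 tested) between −0.07 and 0.12 in KO and −0.06 and 0.03 in WT. By its median the plasmacytoid dendritic cell list was lowest in replicate 2 within each genotype, like the 31 genes, but its genes were mixed. Whether the genes of this list track plasmacytoid dendritic cells in whole skin, rather than other cells that express them, was not tested. Bst2, Pacsin1 and Ccr9 were lowest in replicate 2 of each genotype. Siglech was highest in KO replicate 2 (7.16) and lowest in WT replicate 2 (6.83). Ly6d was highest in WT replicate 2 (7.51). Klk1 was lowest in replicate 1 of each genotype, and Tcf4 in KO replicate 1 and WT replicate 2. Ccr9, Klk1 and Tcf4 were named after their values were seen. By their medians the T and natural killer cell, macrophage and dendritic cell, and B cell lists were highest in replicate 3 within each genotype. The part of these cell types, and of the hair and muscle markers, in the values of the interferon stimulated genes was not tested.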

How the data were processed

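Messenger RNA of skin from 6 mice, 3 KO and 3 WT by the labels, was measured on 1-colour (Cy3) arrays. The deposited scanner files hold spot intensity as Agilent Feature Extraction 11.5.1.1 wrote it, per the file headers, background-subtracted and detrended within each array; deposited flags mark dim, saturated and outlying spots. The submitters' processing notes name limma. A deposited value table, whose group headings stand against the scanner files, was not used.

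After outlier-flagged spots were dropped (31 of 55681 probes had none left), repeat spots were averaged in log2, and each array's 75th percentile was subtracted. Accessions matched to RefSeq (GRCm38.p6) named 27497 probes and left 28153 without a symbol; the array grid refers to mm9, so array positions are not given. A probe was kept if every array of a genotype read it well above background (30081 probes), and the brightest stood for a gene. The comparison used limma 3.58.1 (R 4.3.3), two-sided, with no covariate, Benjamini-Hochberg adjustment over 22822 features and a threshold of 0.05; within-list tests were not made. The fit was tested on simulated data. Promoter sequences are RefSeq's.

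Values on every array are given for members with unadjusted p under 0.05 or without overlap, for the 4 brightest members and for members whose probes disagree; further members are shown as examples of their role. From each other list up to 4 genes of smallest p were named, with exceptions stated or given as not measured; 2 genes counted in these lists are not reported here. Members and lists were chosen with earlier results of these data known. The alternatives covered background correction, normalization, probe filter, choice of probe, slide, replicate number, age, each mouse left out and 2 pairs of mice left out. The planned background correction on mean spot signal used the median spot signal, the column the files hold. The number of arrays limits the precision.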

Additional observations from a re-analysis of the deposited data

How the results depend on the processing

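No alternative among 17 called any of the 31 interferon stimulated genes with limma; the smallest adjusted p among them ran from 0.211 (age as a covariate) to 0.955 (without KO replicates 1 and 2). Of 527 values of single genes under these alternatives, 499 moved by less than the within-genotype SD and 28 by more, 18 of the 28 with age as a covariate and 8 without KO replicates 1 and 2. With age, which differed between the groups, the median of the 31 was −0.24 and that of the 62 further genes −0.22 (all genes −0.15), with 3 of the 31 higher in KO, and Cmpk2 had 0.16; the cause was not tested. With 1 mouse left out the median of the 31 ran from −0.15 (without WT replicate 2, 6 of 31 higher) to 0.09 (without KO replicate 2, 20 of 31 higher). The medians of all genes in these 2 fits were −0.07 and −0.06. That of the further genes ran from −0.14 to 0.04 with 1 mouse left out. The count of all genes called was 5, and was 8 with normexp background correction, 11 with quantile normalization, 2 without a filter, 9 with probes well above background on all arrays, 1 with slide as a block, 15 with slide as a random block, 141 with age, 75 without WT replicate 1 and KO replicate 3, and 0 without KO replicates 1 and 2 (Sox4 −3.66, adjusted p = 0.145), the last 2 alternatives chosen after seeing the data; leaving out 1 mouse gave 2 to 303 (303 without WT replicate 1, 88 without KO replicate 3), with Sox4 at −3.66 to −3.49 and called each time. With the replicate number as a block 0 genes were called, Sox4 at −3.56 having adjusted p = 0.103, and 1 of the 31 had an unadjusted p under 0.05. Over all genes same-numbered mice had deviations that correlated at −0.13, −0.04 and 0.08, and differently numbered mice at −0.08 to 0.13. Pairing by number was thus not seen over all genes. These values cannot exclude it, since each deviation is from a mean of 3 mice. Signal over background limits Oas3 and 7 of the 11 interferon genes not tested.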

Other observations

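The probe of Xaf1 that was low in KO replicate 3 and WT replicate 3 had little company on the array. Among 55650 probes, 2 lay more than 3 log2 units lower in both of these mice than in any of the other 4, this Xaf1 probe and a probe without a gene symbol. The second read 1.05, 1.06 and −3.27 in KO and 0.16, 1.30 and −4.33 in WT. For the 14 other pairs of mice no probe met the same criterion, which was set after the Xaf1 values were seen.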
